A study of Mus musculus with 12 samples.

Results

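Death receptor signalling was followed through 10 genes in the p53 and histone H3 lysine 4 trimethylation (H3K4me3) peak lists of irradiated mouse back skin. The genes encode 3 receptors (Fas, Tnfrsf10b and Eda2r), 3 adaptors (Pidd1, Fadd and Tradd), the initiator caspase Casp8, and 3 inhibitors of the pathway (Cflar, Birc2 and Birc3). They are 10 of the 21887 protein-coding genes in the RefSeq gene table used, and all 10 were found in it. A gene was counted when the midpoint of a peak lay inside it or within 5 kb of its start or end, and otherwise the nearest peak of each list was taken. The genes were named by their place in the pathway and not by a measured value, but with earlier results of these data known.

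Chromatin immunoprecipitation followed by sequencing was labelled with 12 samples in 6 groups of 2. p53 was precipitated from K17KO and from wild-type (WT) skin and H3K4me3 from WT skin, and each of these was sampled at T0 and after 6 h. The animals were 8 to 10 weeks old, and the treatment label of every sample, T0 included, is ionizing radiation, with a dose of 5 Gy in the protocol. K17KO is written as in the labels, which give no gene, promoter or tissue for the deletion. The data were 3 peak lists, with 1101 peaks for K17KO p53, 2909 for WT p53 and 5464 for H3K4me3. No list names a library, time or replicate, so T0 and 6 h were not separated, no value has a replicate error and no test was made. WT was inferred for the p53 list that names its antibody alone. H3K4me3 was labelled in WT skin only, so nothing below compares the mark between genotypes.

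Death receptors are members of the tumour necrosis factor (TNF) receptor family that carry a death domain or signal through linked adaptors. On binding a ligand they gather adaptors and caspase-8 at the membrane, and active caspase-8 starts the caspase cascade of apoptosis. The protein encoded by Cflar limits that activation, and those encoded by Birc2 and Birc3 attach ubiquitin in the TNF receptor complex and turn the signal towards NF-κB and survival. Fas, Tnfrsf10b, Eda2r and Pidd1 are known p53 target genes, and Fas takes part in the death of keratinocytes after ultraviolet damage. H3K4me3 marks the start regions of active genes.

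Promoter sequences of 8 of the 10 genes were found in RefSeq (GRCm38.p6, the same coordinates as mm10), each from 250 bases before the start site to 50 after it. Those of Fas (chr19:34290409-34290708, plus strand) and Eda2r (chrX:97377160-97377459, minus strand) are shown first because an H3K4me3 peak reached into them. Capitals mark the bases under that peak, which are 38 for Fas and 27 for Eda2r, at the downstream end of each window.
Fas: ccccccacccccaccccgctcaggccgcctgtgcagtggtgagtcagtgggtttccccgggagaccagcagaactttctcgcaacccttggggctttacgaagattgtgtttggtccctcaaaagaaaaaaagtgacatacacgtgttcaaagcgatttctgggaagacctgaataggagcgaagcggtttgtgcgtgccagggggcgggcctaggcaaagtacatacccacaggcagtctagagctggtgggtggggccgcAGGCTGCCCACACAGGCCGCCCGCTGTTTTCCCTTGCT
Eda2r: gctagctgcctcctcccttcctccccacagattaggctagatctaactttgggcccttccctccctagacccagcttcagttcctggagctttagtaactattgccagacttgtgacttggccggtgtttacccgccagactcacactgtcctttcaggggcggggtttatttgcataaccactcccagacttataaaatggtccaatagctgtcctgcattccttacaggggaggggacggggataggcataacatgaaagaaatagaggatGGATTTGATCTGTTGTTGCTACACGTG

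None of the 10 genes had a p53 peak in either genotype. The count was 0 of 10 in the K17KO list, where 3.79% of protein-coding genes had a peak by the same rule, and 0 of 10 in the WT list, where 6.75% did. At these background shares a list of 10 genes holds few peaks or none, and no test was made of these counts. The lists did hold p53 peaks at some other genes. Bax, a mitochondrial apoptosis effector, had a peak of 4.66-fold in the K17KO list and of 6.70-fold in the WT list. Cdkn1a, the cell cycle inhibitor p21, had none in the K17KO list and one of 6.57-fold in the WT list. Mdm2, which encodes the ligase that degrades p53, had none in either. The median listed peak rested on 11 fragments in the K17KO list and 7 in the WT list. A gene without a listed p53 peak may still be bound by p53.

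In the H3K4me3 list, 6 of the 10 genes had a peak, against 23.9% of protein-coding genes, with 10 peaks in all. All 3 receptor genes had one, as did the adaptor gene Tradd and the inhibitor genes Cflar and Birc3. Pidd1, Fadd, Casp8 and Birc2 had none. The peaks ran from 1.38-fold at Tradd to 3.10-fold at Eda2r, with a median of 2.34 over the 10 peaks, against 1.66 over all H3K4me3 peaks. Fold here is the authors' deposited enrichment at the peak summit over the caller's background, and −log10 q is the caller's own value for that peak. The fragments at each summit and the background under it were recovered from the deposited fold and p-value.

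**Figure D1:**
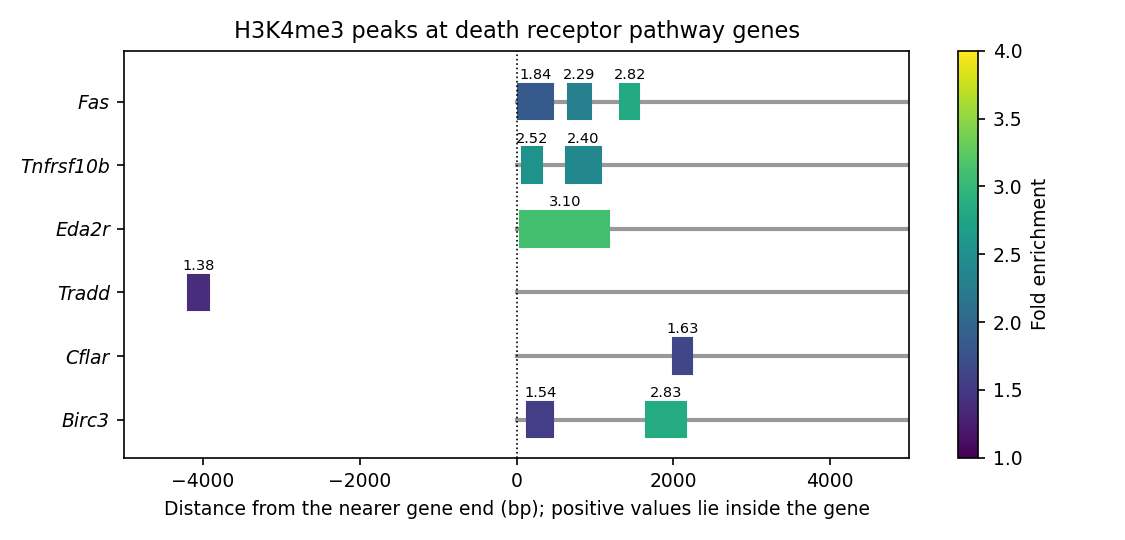
H3K4me3 peaks (boxes) at the 6 death receptor pathway genes that had one, drawn to scale by distance in bp from the nearer gene end, with the gene body as a grey line and each box coloured and labelled by its fold enrichment. The 9 peaks of the other 5 genes lie inside the gene near 1 end, and the Tradd peak lies 4055 bp outside.

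Fas encodes the receptor of Fas ligand, and its gene spans chromosome 19 from 34290647 to 34327775. It carried 3 H3K4me3 peaks in a row, beginning 12 bp after the start site. The first, from 34290671 to 34291106, had 1.84-fold enrichment with 73 fragments at its summit over a background of 39.3 and a −log10 q of 2.85. The second, from 34291302 to 34291592, had 2.29-fold enrichment with 59 fragments over 25.2 and a −log10 q of 4.67. The third, from 34291969 to 34292210, had 2.82-fold enrichment with 20 fragments over 6.45 and a −log10 q of 2.08. The fold was higher at each peak farther into the gene while the fragments and the background were lower, so the highest fold stood on the fewest fragments. Gaps of 195 and 376 bp separated them. Having 3 or more peaks was true of 0.982% of protein-coding genes, 215 in all. Only 5226 of the 21887 protein-coding genes had any H3K4me3 peak. In the Bcl2 family, set beside the death receptor genes below, 2 of 22 genes had 3 or more.

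Tnfrsf10b, which encodes the only death receptor for the ligand TRAIL in mice, spans chromosome 14 from 69767472 to 69784411. Its first peak, from 69767541 to 69767798, lay 197 bp inside the nearer gene end and had 2.52-fold enrichment, with 164 fragments over 64.5. Its −log10 q of 18.95 was the highest of the 10 peaks and ranked 20 of 5464 in the list. Its second peak, from 69768097 to 69768552, lay 298 bp further on and had 2.40-fold enrichment, with 66 fragments over 26.9 and a −log10 q of 6.07. No promoter window was at hand for this gene, so its peaks are placed by the gene end alone.

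Eda2r encodes a receptor for ectodysplasin A2, a ligand of the family that patterns skin appendages, and spans chromosome X from 97333837 to 97377234. A single broad peak, from 97376055 to 97377186, covered its start region from 23 to 1154 bp after the start site. At 1132 bp it was the widest of the 10 and ranked 27 of 5464 by width, where the median H3K4me3 peak was 334 bp wide. Its 3.10-fold enrichment was the highest of the 10 peaks, with 34 fragments over 10.3 and a −log10 q of 4.99. Of protein-coding genes with an H3K4me3 peak, 9.09% had a highest fold at least as large as that of Eda2r, against 11.2% for Fas and 14.1% for Tnfrsf10b. The 3 receptor genes thus stood near each other in the upper part of the list by fold, and differed in peak number, width and depth. This place was not particular to receptors, since the inhibitor gene Birc3 stood there too, at 11.0%.

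**Figure D2:**
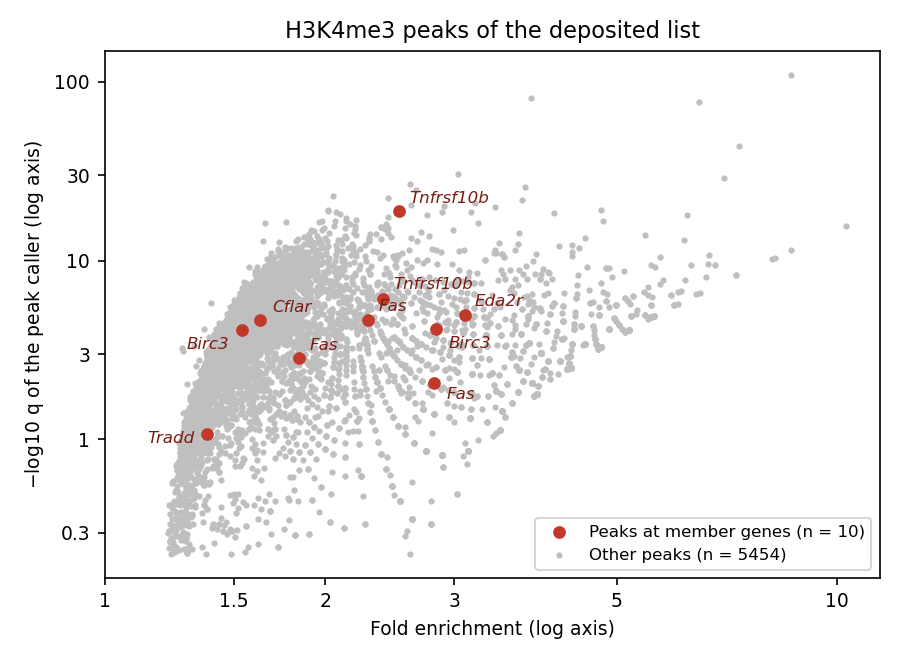
Each point is a peak of the H3K4me3 list by its fold enrichment (x axis, log) and the peak caller's −log10 q (y axis, log), with the 10 peaks at death receptor pathway genes in red and the other 5454 in grey. Tnfrsf10b stands high at 18.95, the Fas, Eda2r and higher Birc3 peaks lie between 2.08 and 4.99 at folds from 1.84 to 3.10, and Tradd lies near the bottom at 1.07.

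Among the adaptors, only Tradd was counted, and weakly. Tradd links TNF receptor 1 to the downstream kinase and ubiquitin ligases. Its peak, on chromosome 8 from 105254383 to 105254657, lay 4055 bp outside the gene and inside the neighbouring gene B3gnt9. It had 1.38-fold enrichment, with 146 fragments over 106 and a −log10 q of 1.07, and 87.2% of H3K4me3 peaks had at least its fold. With a window of 1 kb it was not counted. Pidd1, a death domain protein that forms a caspase-2 activating complex, had its nearest H3K4me3 peak 7.92 kb away, inside Pnpla2, at 1.48-fold. Fadd, the adaptor that joins Fas to caspase-8, was the most remote, with its nearest H3K4me3 peak 738 kb away, a distance that 89.0% of protein-coding genes match or undercut.

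Casp8 and Cflar lie side by side on chromosome 1, 36348 bp apart, and encode the caspase and its catalytically inactive relative. Cflar had a peak, from 58713309 to 58713546, at 1.63-fold with 158 fragments over 96.3 and a −log10 q of 4.65. It lay 1936 bp after the Cflar start site and reached no part of the promoter window. The same peak was the nearest to Casp8, at 81.8 kb.

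Birc2 and Birc3 are neighbouring paralogues on chromosome 9, separated by 10336 bp, and encode cellular inhibitors of apoptosis. Birc3 had a pair of peaks. The one from 7872739 to 7873066, 268 bp after its start site, had 1.54-fold enrichment with 181 fragments over 117 and a −log10 q of 4.09. The one from 7871043 to 7871552, 1873 bp after the start site, had 2.83-fold enrichment with 34 fragments over 11.3 and a −log10 q of 4.13. As at Fas, the peak farther into the gene had the higher fold and the fewer fragments. Birc2 had no peak, and its nearest was the inner Birc3 peak, 34.2 kb away. The promoter windows of the pair are printed next, Birc3 at chr9:7873121-7873420 and the more downstream of the listed Birc2 starts at chr9:7836757-7837056, both on the minus strand. Capitals mark a match to the p53 half-site consensus, which was found in Birc2 only.
Birc3: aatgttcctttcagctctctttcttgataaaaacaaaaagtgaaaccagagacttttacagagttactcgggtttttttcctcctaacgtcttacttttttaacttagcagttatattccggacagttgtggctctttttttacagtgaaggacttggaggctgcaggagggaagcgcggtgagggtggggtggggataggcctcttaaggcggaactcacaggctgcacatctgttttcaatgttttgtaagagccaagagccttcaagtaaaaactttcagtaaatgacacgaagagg
Birc2: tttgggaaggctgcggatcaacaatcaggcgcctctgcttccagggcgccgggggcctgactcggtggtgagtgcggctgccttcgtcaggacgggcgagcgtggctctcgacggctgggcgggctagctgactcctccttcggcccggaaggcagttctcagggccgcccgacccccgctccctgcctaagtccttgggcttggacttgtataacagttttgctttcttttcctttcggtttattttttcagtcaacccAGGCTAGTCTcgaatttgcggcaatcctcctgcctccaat

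Birc3, which carried H3K4me3 peaks, had 7 CpG dinucleotides in its window. The Birc2 windows, where no peak was called, had 21 and 34, against a median of 13 over 21263 promoters of protein-coding genes. Among the other genes with a peak, Fas had 14, Cflar 12 and Eda2r 5. Among those without one, Fadd had 22, Pidd1 17 and Casp8 5. The ranges overlapped, at 5 to 14 with a peak and 5 to 34 without one, but through Casp8 alone. The other windows without a peak had 17 to 34. The Casp8 window stands at a start site inside the gene, at 58802502 against a gene start of 58795233. That of Pidd1 does too, at 141444025 against a gene end of 141447565 on the minus strand. The difference was not tested. The p53 half-site consensus, a palindrome of 10 letters, was searched on both strands, and no match overlapped one to the other motif searched. It was found in 1 of the 9 member windows, the Birc2 window shown, and in 7.37% of all promoter windows. With 1 mismatch allowed outside its central C and G it was found in 6 of 9 and in 49.9%. A pair of exact matches with up to 13 bases between them was found in none of the 9 and in 0.047%. The NF-κB site consensus, searched likewise, was found in none of the 9 and in 4.81%. These matches describe 300-base windows only.

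The peaks were also placed relative to start sites, which the counting rule partly sets, since it admits any midpoint inside a gene. Start sites were at hand for 7 of the 10 H3K4me3 peaks, those of Fas, Eda2r, Cflar and Birc3, and all 7 had their midpoint after the start site, between 229 and 1936 bp into the gene. Of the 3615 H3K4me3 peaks within 5 kb of a listed start site, 77.1% lay in the first 2 kb after it. The Tradd peak lay outside its gene, and neither it nor the Tnfrsf10b peaks could be placed by a start site. Fragments at the summits ranged from 20 to 181 with a median of 69.5, and the background from 6.45 to 117 with a median of 33.1. Over all H3K4me3 peaks the medians were 148 and 90.7. The sources used here do not give the control of the list, and a peak may mark a difference from that control rather than presence of the mark. A gene without a peak may for the same reason still carry H3K4me3.

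p53 peaks nearest to the genes were then located. In the K17KO list the nearest lay 115 kb (Pidd1) to 3390 kb (Eda2r) away, with a median of 648 kb, against 581 kb over all protein-coding genes. In the WT list they lay 25.7 kb (Birc3) to 5590 kb (Eda2r) away, with a median of 159 kb, against 242 kb. None of the 10 genes had a K17KO peak within 100 kb, where 15.5% of protein-coding genes had one. In the WT list 5 did (Fas, Tnfrsf10b, Pidd1, Birc2 and Birc3), where 28.2% of protein-coding genes had one. The −log10 q of these WT peaks was 0.96 for Fas, 1.02 for Tnfrsf10b and 1.42 for Pidd1. It was 2.01 for the peak that Birc2 and Birc3 shared. The Fas one would not pass a q of at most 0.1. The WT list holds more peaks than the K17KO list, so distances were not compared between them. Several genes shared a nearest peak, and the 10 genes had 7 different ones in the K17KO list and 8 in the WT list.

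**Figure D3:**
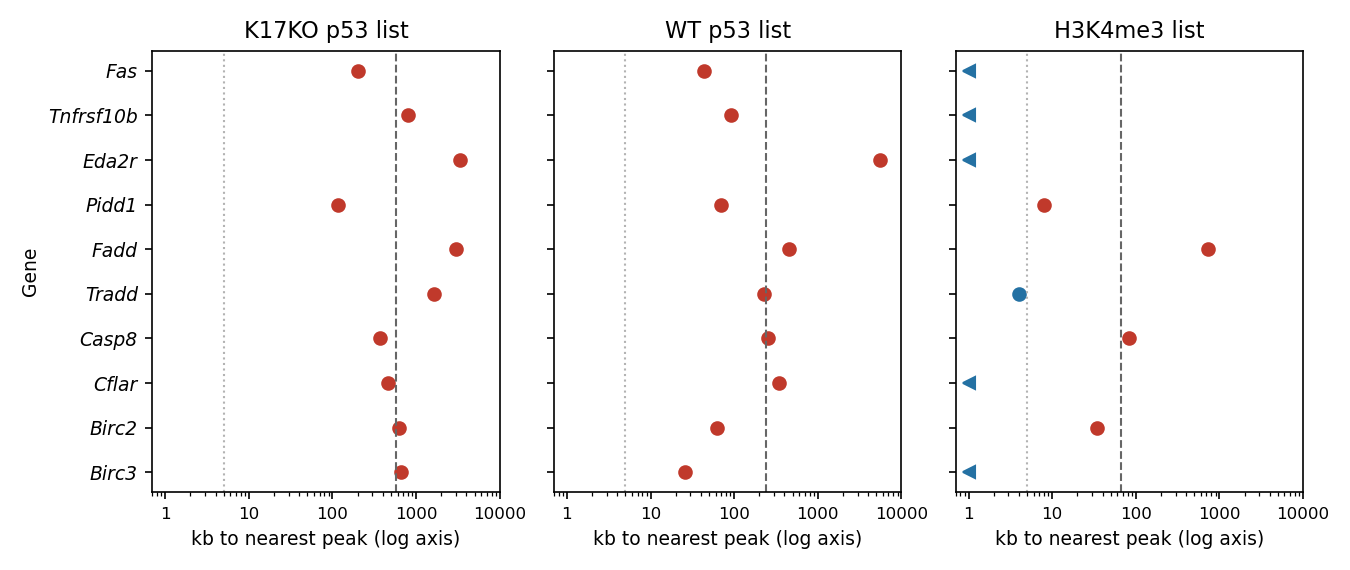
Distance in kb (log axis) from each of the 10 genes to the nearest peak midpoint of each list, with triangles at the left edge for a peak inside the gene, blue for a peak within 5 kb and red for one farther away. The dotted line stands at 5 kb and the dashed line at the median of all protein-coding genes (581, 242 and 66.7 kb).

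Among the receptors, Fas had its nearest K17KO peak at 200 kb (4.60-fold, 8 fragments over 0.956) and its nearest WT peak at 43.8 kb (3.86-fold, 7 over 1.07), the WT one inside the smooth muscle actin gene Acta2. Tnfrsf10b had a K17KO peak at 801 kb (4.80-fold) and a WT peak at 90.7 kb (4.07-fold, 7 over 0.964), the WT one inside Loxl2. Eda2r was the most isolated in both lists, with a K17KO peak at 3390 kb (5.66-fold) and a WT peak at 5590 kb (4.72-fold). Among the adaptors, Pidd1 had a K17KO peak at 115 kb (4.75-fold, 13 over 1.95) and a WT peak at 70.6 kb (4.52-fold, 8 over 0.992). The same K17KO peak was the nearest to Fadd, at 3020 kb, and the nearest WT peak to Fadd lay at 450 kb (3.50-fold). Tradd had a K17KO peak at 1620 kb (5.47-fold) and a WT peak at 227 kb (4.16-fold). None of these peaks lay inside or beside the gene it was measured from.

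Casp8 and Cflar shared their nearest p53 peak in each list. In the K17KO list it lay at 368 kb from Casp8 and 457 kb from Cflar (3.73-fold, 10 fragments over 1.95). In the WT list it lay at 253 kb from Casp8 and 341 kb from Cflar (3.67-fold, 6 over 0.906). Birc2 and Birc3 likewise shared theirs. The K17KO peak lay at 633 kb from Birc2 and 663 kb from Birc3 (3.10-fold, 11 over 2.87). The WT peak, on chromosome 9 from 7898819 to 7899034, lay at 61.8 kb from Birc2 and 25.7 kb from Birc3, with 5.02-fold enrichment from 9 fragments over 0.992 and a −log10 q of 2.01. It was the p53 peak closest to any of the 10 genes, and 12.2% of protein-coding genes had a WT peak as near or nearer. The nearest peaks rested on 8 to 13 fragments in the K17KO list and on 6 to 9 in the WT list. The fewest fragments behind any listed peak were 6 in the K17KO list and 5 in the WT list.

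The rest of the pathway was read from a wider list of 74 genes, of which 73 were in the gene table. In the K17KO p53 list 1 of 73 had a peak (1.37%, against 3.79% of protein-coding genes), and in the WT p53 list 4 of 73 (5.48%, against 6.75%). Cradd, an adaptor of caspase-2, was the only one with a peak in both genotypes. Its K17KO peak was 5.50-fold (12 fragments over 1.36, −log10 q of 3.63), 38893 bp from the nearer gene end. Its WT peak was 3.67-fold (6 over 0.906, −log10 q of 0.66), at a separate site 29975 bp from the nearer gene end. WT peaks also lay at Map3k7, the kinase TAK1 of the NF-κB route (4.07-fold), and Cyld, a deubiquitinase that restrains NF-κB (2.99-fold). The Map3k7 peak lay inside the gene, 13550 bp from its nearer end, and the Cyld peak 3796 bp outside. Their −log10 q were 1.02 and 0.38. At a q of at most 0.1, 2 of the 73 genes kept a WT peak, where 4.07% of protein-coding genes did. Neither Cradd nor Cyld was among them, so no wider pathway gene then had a peak in both lists. None of the 8 ligand genes, the other 13 receptor genes or the 6 genes for further inhibitors of apoptosis and their antagonists had a p53 peak in either list. The shares of protein-coding genes were 3.79% and 6.75%, at which groups this small hold few peaks or none. These groups were formed after the values were seen.

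In the H3K4me3 list 23 of the 73 had a peak (31.5%, against 23.9%). Among genes with a peak, the highest fold per gene had a median of 2.67 for the 6 death receptor genes, 1.55 for the wider pathway and 1.62 for all protein-coding genes. A gene with more peaks has more values from which the highest is taken. Of the genes with a peak, 3 of 6 death receptor genes had 2 or more, against 5 of 23 in the wider pathway. Over all protein-coding genes it was 920 of 5226. The medians were not adjusted for peak number. No ligand gene (0 of 8) and 3 of the 13 other receptor genes had a peak. The receptor genes were Tnfrsf21 at 1.41-fold, Tnfrsf22 at 1.42-fold and Ngfr. The NF-κB route had 9 of 21. The highest folds were at Tnfaip8 (4.32, with 11 fragments over 1.78 and 3497 bp outside the gene) and at Tnip1, a partner of the NF-κB inhibitor A20 (4.03, with 12 over 2.23). Nfkbia, the inhibitor that holds NF-κB in the cytoplasm, followed at 2.27-fold with 82 over 35.5. Ngfr, the neurotrophin receptor p75, stood at 2.13-fold, Map3k7 at 1.94-fold and Relb, an NF-κB subunit, at 1.91-fold. Of the 4 wider pathway genes with a p53 peak, Map3k7 alone also had an H3K4me3 peak.

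The Bcl2 family, which runs the mitochondrial route of apoptosis, was set beside the death receptor genes. The death receptor genes had a peak at 0 of 10 in the K17KO p53 list, at 0 of 10 in the WT p53 list and at 6 of 10 in the H3K4me3 list. Of the 22 Bcl2 family genes, 1 had a K17KO p53 peak (Bax), which is 4.55% against 3.79% of protein-coding genes. A WT p53 peak was found at 3 (Bax, Bbc3 at 6.03-fold and Bcl2l14 at 4.39-fold), which is 13.6% against 6.75%. An H3K4me3 peak was found at 12 of 22 (54.5%, against 23.9% of protein-coding genes), with a median highest fold of 1.66. These shares were not tested against each other. Genes of different length have different chances of a peak by this rule, and the median lengths were 22.3 kb for the death receptor genes, 22.6 kb for the wider pathway, 9.99 kb for the Bcl2 family and 17.2 kb for all protein-coding genes.

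**Figure D4:**
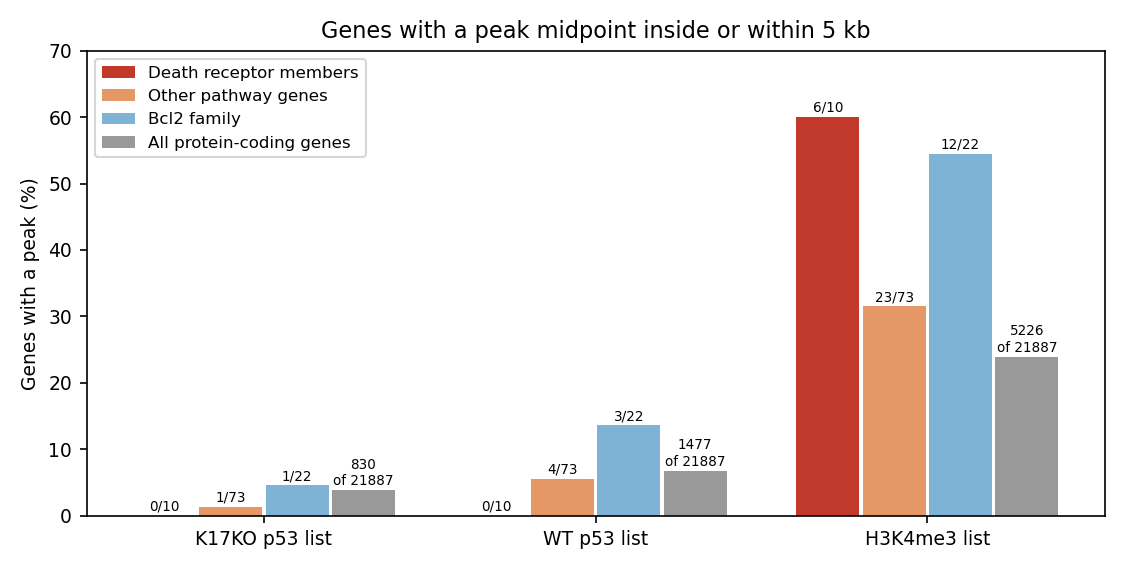
Share of genes (%) with a peak midpoint inside the gene or within 5 kb, by peak list, for the 10 death receptor pathway genes, the 73 other pathway genes, the 22 Bcl2 family genes and all 21887 protein-coding genes, with the counts above the bars. The death receptor genes stand at 0 in both p53 lists and at 60% in the H3K4me3 list.

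The tissue label was read against marker genes in the H3K4me3 list. Of 10 epidermal and hair follicle genes 3 had a peak, namely Krt1, Krt10 and Krt15, and the basal keratins Krt5 and Krt14 had none. One gene each had a peak among 6 dermal fibroblast (Col1a2), 5 skeletal muscle (Actn3), 3 adipocyte (Plin1) and 3 melanocyte (Pmel) markers, and 0 of 5 immune and 0 of 3 endothelial markers did. By the same rule 23.9% of protein-coding genes had a peak, and these small marker counts do not tell cell types apart. The cells that carried the peaks at the death receptor genes were not identified.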

How the data were processed

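Back skin of irradiated mice was profiled with antibodies against p53 and H3K4me3. The submitters' processing notes list Bowtie2 2.2.5, SAMtools 1.7, MACS2 2.1.2 and mm10, with no role or order. The sources used here do not give the control, the call threshold or the libraries of each list. The authors deposited, per peak, a fold enrichment (ratio), −log10 p, −log10 q, a score equal to 10 times the −log10 p without decimals, and a summit position. Total reads are unknown.

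Summit fragments and background were recovered from the deposited fold, taken as fragments plus 1 over background plus 1, and the Poisson −log10 p. Whole numbers matched within 0.001 for 100.0% of peaks in each list. In the WT p53 list 225 peaks had more than 1 such match, and the closest was taken. Genes and promoters came from RefSeq tables of GRCm38.p6, matched by symbol, with Python 3.11.15, pandas 2.3.3, NumPy 2.4.6, SciPy 1.17.1 and Matplotlib 3.10.9. Gene assignment was tested on simulated data and found all 200 planted genes among 49943. The planted peaks were placed by the counting rule itself, so this checks the code and not the rule. The gene table gives no exons, and no genome sequence of the peaks was used. The 10 genes and the lists were chosen with earlier results of these data known. All 10 are named, with the wider pathway genes that had a p53 peak and the 6 of highest H3K4me3 fold. A gene counted in the wider list is not reported by name here. Grouping by role within the wider list was added after the values were seen. No test was run, since no list has replicates. Other windows, q limits, an upper 50% by fold and a peak-edge rule were tried.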

Additional observations from a re-analysis of the deposited data

How the results depend on the processing

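The count of 0 of 10 in each p53 list did not change under any alternative tried. These were windows of 1 and 20 kb, inside the gene only, gene ends only and any base of the peak. The others were a q of at most 0.1 or 0.01 and the upper 50% by fold. None of them could give another count. The narrower rules can only drop peaks, and the nearest p53 peak to any of the 10 genes lay 25.7 kb away. Over the alternatives the share of protein-coding genes with a peak ran from 1.91% to 5.94% in the K17KO list and from 0.822% to 10.8% in the WT list. The H3K4me3 count ran from 4 (upper 50% by fold, without Tradd and Cflar) to 7 (20 kb, with Pidd1). The shares of protein-coding genes there were 10.8% and 32.9%. It was 5 without Tradd at 1 kb (share 21.1%), inside the gene (18.5%) and at a q of at most 0.01 (18.4%). The highest fold of each gene was recomputed for windows of 1 and 20 kb, inside the gene only and the q limits, and was as reported wherever the gene kept a peak under these.

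In the K17KO p53 list a 20 kb window gave 3 wider pathway genes, 2 Bcl2 family genes and 1299 protein-coding genes. Gene ends only gave 0 pathway and 519 protein-coding genes, and the upper 50% by fold 418 protein-coding genes. At a q of at most 0.1 the K17KO list kept 1 pathway and 830 protein-coding genes, and at 0.01 it kept 1 and 606. In the WT p53 list, wider pathway and protein-coding counts were 7 and 2364 at 20 kb and 1 and 596 at gene ends. They were 2 and 890 at a q of at most 0.1, 0 and 180 at 0.01, and 2 and 784 in the upper 50% by fold. The lowest −log10 q of any peak was 1.04 in the K17KO list and 0.376 in the WT list. The full lists thus reach down to unlike q, and at 0.01 the K17KO list kept more protein-coding genes than the WT list. In the H3K4me3 list the upper 50% gave 8 pathway, 6 Bcl2 family and 2355 protein-coding genes. The cause of these shifts was not tested beyond the wider or narrower rule itself. The planned overlap of p53 with H3K4me3 peaks gave no value, as no p53 peak was assigned. No paired analysis was possible because the lists carry no replicate. Fragment numbers limit depth, and no error is given for the folds or counts.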
